A study of Mus musculus with 2 samples.

Results

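The genes described here encode the protein subunits of the mitochondrial ribosome that carry the symbols *Mrpl* (large subunit) and *Mrps* (small subunit). Members were chosen by symbol alone, as *Mrpl* or *Mrps* followed by a number and at most 1 letter, without pseudogenes. This gave 77 of the 18159 genes listed in an mRNA-seq data set of jejunal tunica muscularis, the muscle coat of the small intestine, from 15-day-old mice on a C57BL/6 background. The data set asks which transcripts differ when the maintenance DNA methyltransferase *Dnmt1* is deleted in smooth muscle cells, and holds 1 library of *Dnmt1*-WT and 1 library of *Dnmt1*-KO. *Dnmt1*-WT mice carry *smMHC* Cre-eGFP/+, a transgene in which the *Myh11* promoter drives Cre recombinase and eGFP, and *Dnmt1*-KO mice carry the same transgene with both *Dnmt1* alleles floxed, so that the deletion is restricted to cells that have expressed *Myh11*. Male and female mice contributed RNA to each genotype. How their RNA was combined is not given in the sources used here. The free-text description of both samples names the knockout, while the title and the genotype label of 1 of them say *Dnmt1* WT. Groups follow the genotype label.

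With 1 library per genotype there was no replicate check, and no difference below was tested. Values are FPKM, a level normalised to transcript length and to the number of mapped fragments, and a ratio is the FPKM in *Dnmt1*-KO divided by that in *Dnmt1*-WT. The values are not counts, so the number of reads behind a single gene is not listed. The paper's supplement lists more mapped reads for *Dnmt1*-WT than for *Dnmt1*-KO. The part of this difference in depth in low values and in the numbers of transcript variants was not tested.

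*Dnmt1* itself stood at 11.6 FPKM in *Dnmt1*-WT and 7.58 FPKM in *Dnmt1*-KO. The tissue label was borne out by *Acta2*, the smooth muscle actin, which was among the highest genes in both libraries at 5408 and 4016 FPKM. Other cell types differed in their markers between the libraries. All 10 smooth muscle markers were lower in *Dnmt1*-KO (summed FPKM 16879 and 12197). All 12 leukocyte and macrophage markers were higher (138 and 529), as were all 8 endothelial markers (70.1 and 178) and all 10 markers of dividing cells (62.6 and 129). All 7 adipocyte markers above 0 in both libraries were higher (summed FPKM of the list 115 and 1253), and *Lep* was listed at 0 in *Dnmt1*-WT and 0.2 FPKM in *Dnmt1*-KO. Of 8 enterocyte markers, 7 were higher (445 and 911). Of 8 enteric neuron and glia markers, 6 were higher (429 and 529), and all 3 markers of interstitial cells of Cajal were lower (124 and 104). In cell sorting of this tissue at the same age, the paper found a larger share of cells with the immune marker CD45 in *Dnmt1*-KO. A smaller share of the cells without CD45 had strong eGFP. The part of the marker and cell shifts in the values of the mitochondrial ribosomal protein genes was not tested.

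Mitochondria keep their own ribosome, which descends from that of their bacterial ancestor and translates the few mRNAs of mitochondrial DNA, all of them for subunits of the respiratory chain and ATP synthase. Its RNAs are made inside the organelle, but every one of its proteins is encoded in the nucleus, made on cytosolic ribosomes and imported. Many of these proteins have a counterpart in the bacterial ribosome, and others were added in the mitochondrial lineage, so that the particle is rich in protein and poor in RNA.

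Transcripts of the mitochondrial ribosomal proteins were present in both libraries at nearly the same levels, with no shared direction. All 77 members were above 0 FPKM in both, and 68 were at 10 FPKM or more in both. In *Dnmt1*-WT they ranged from 3.48 to 193 FPKM with a median of 24.2 FPKM. In *Dnmt1*-KO they ranged from 3.07 to 217 FPKM with a median of 27.9 FPKM. Their sum was 2777 FPKM in *Dnmt1*-WT against 2917 in *Dnmt1*-KO, and took 0.646% and 0.633% of the FPKM of all genes. In a bulk sample, fewer cells of a type and less RNA per cell cannot be told apart.

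The ratio was above 1 for 42 members and below 1 for 35. Of the 16102 genes above 0 FPKM in both libraries, 50.3% had a ratio above 1 and 49.1% a ratio below 1. The median log2 ratio was 0.02 for the members and 0.01 for all genes. Extreme ratios were missing. No member was at a ratio of 2 or more, which 11.8% of all genes were, and none was at 0.5 or less, which 4.98% were. Members higher by 25% or more numbered 13 (16.9%, against 29.6% of all genes), and a ratio of 0.8 or less was seen for 5 members (6.49%, against 25.4%). The members were more abundant than the typical gene, whose median was 5.19 and 5.39 FPKM. Among the 5840 genes at 10 FPKM or more in both libraries, 47.3% were higher and 52.7% lower, and of the 68 members there 40 were higher and 28 lower. Of those 68, 13 (19.1%) were higher by 25% or more beside 18.4% of the genes, and 1 was at 0.8 or less beside 20.4%. Ratios of 2 or more and of 0.5 or less, absent among the members, were seen for 2.67% and 1.85% of these genes. The interquartile range of the members lay between -0.15 and 0.22 on the log2 scale, and 34 of the 77 had a ratio between 0.9 and 1.1.

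The split between higher and lower followed the scaling. The summed FPKM of all genes was 1.07 times as high in *Dnmt1*-KO, and dividing each library by its sum moved the median of all genes by -0.10 on the log2 scale. Under that scaling 27 members were higher and 50 lower, beside 43.0% of all genes higher. The balance of 13 members higher by 25% or more against 5 at 0.8 or less turned to 8 against 12 there. These were 10.4% and 15.6% of the members. All genes turned too, with 25.2% higher by 25% or more and 32.3% at 0.8 or less. With centring on transcript length the balance was 6 members (7.79%) against 12 (15.6%). All genes did not turn there, with 28.8% and 24.998%. Division by the upper quartile went the other way, with 49 members higher and 28 lower beside 55.7% of all genes higher. There 18 members (23.4%) were higher by 25% or more and 3 (3.90%) at 0.8 or less, beside 33.0% and 21.5% of all genes. Centring on genes of like transcript length gave 32 members higher and 45 lower, with the all-gene median set to 0.

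**Figure D1:**
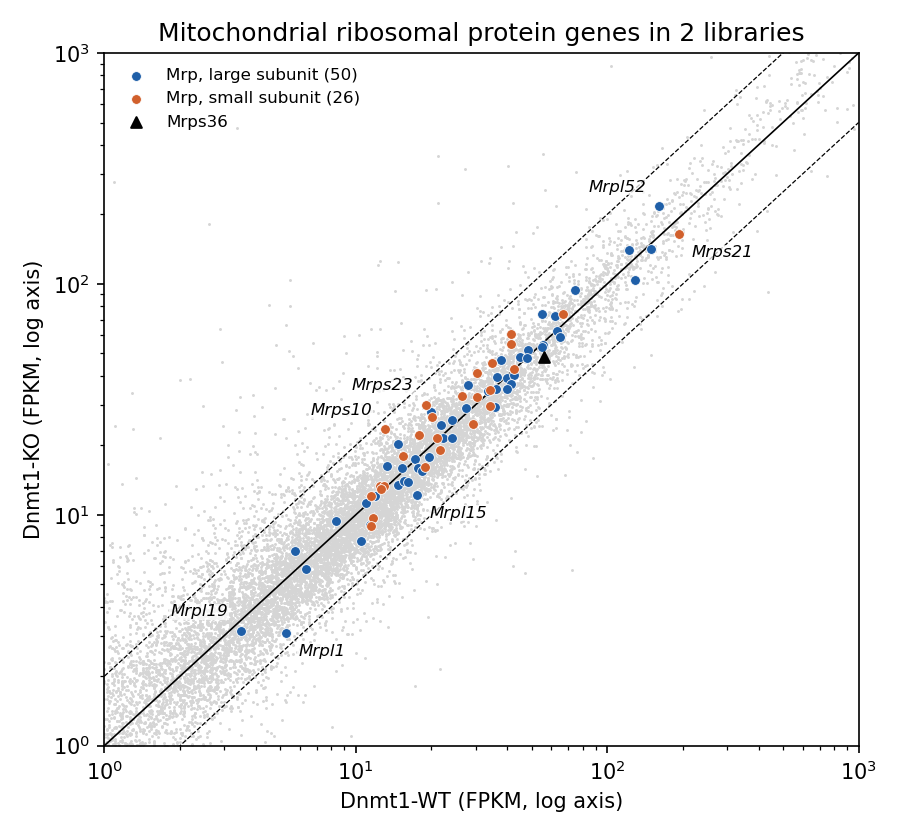
FPKM of each gene in *Dnmt1*-WT (horizontal, log axis) and *Dnmt1*-KO (vertical, log axis), with all genes within the plotted range as grey points, members of the large subunit in blue, members of the small subunit in orange and *Mrps36* as a black triangle. The solid line marks equal levels and the dashed lines ratios of 2 and 0.5, between which all 77 members lie.

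The 5 most abundant members had short transcripts, of 405 to 692 bases, and came from both subunits. *Mrpl52*, a mitochondria-specific protein of the large subunit (chr14:54426909-54429756), stood at 160.05 FPKM in *Dnmt1*-WT and 217 FPKM in *Dnmt1*-KO, a ratio of 1.36. *Mrps21*, the counterpart of bacterial S21 (chr3:95862634-95871519), stood at 193 and 164 FPKM, a ratio of 0.851. The order of the 2 highest members thus differed between the libraries. *Mrpl23*, a protein of the tunnel exit, was at 149.7 and 141 FPKM. *Mrpl33*, the counterpart of bacterial L33, was at 122 and 141 FPKM. *Mrpl42*, found only in mitochondria, was at 129 and 104 FPKM. These 5 genes made up 27.1% of the summed level of all members in *Dnmt1*-WT and 26.3% in *Dnmt1*-KO.

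At the other end, *Mrpl19* was listed at 3.48 and 3.14 FPKM and *Mrpl1* at 5.26 and 3.07 FPKM. *Mrpl35* (6.33 and 5.8 FPKM), *Mrpl17* (5.75 and 7 FPKM) and *Mrpl11* (8.32 and 9.38 FPKM) were the next lowest by the geometric mean of the 2 libraries. All 5 encode large subunit proteins with a bacterial counterpart. The proteins enter the particle in equal numbers apart from the stalk protein *Mrpl12*, yet their FPKM, a level per length, spanned 55.3-fold in *Dnmt1*-WT and 70.7-fold in *Dnmt1*-KO. The order of the members was nearly the same in both libraries (Spearman's rho 0.97 across 77 genes, which are not independent replicates and share the 2 libraries).

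The 3 highest ratios belonged to proteins of the small subunit. *Mrps10* (chr17:47368887-47381417), a protein of the head of the small subunit with a bacterial counterpart, stood at 13.0 FPKM in *Dnmt1*-WT and 23.4 FPKM in *Dnmt1*-KO, a ratio of 1.80. *Mrps23* (chr11:88204388-88211507), found only in mitochondria, stood at 19.1 and 29.9 FPKM, a ratio of 1.57. *Mrps16* (chr14:20389304-20393634), the counterpart of bacterial S16, stood at 41.3 and 60.6 FPKM, a ratio of 1.47. The first large subunit gene in this order was *Mrpl36*, for a short zinc-binding protein, at 19.98 and 27.9 FPKM, a ratio of 1.396. *Mrpl40*, of the central protuberance, was at 14.7 and 20.2 FPKM (1.37), and *Mrpl54*, a mitochondria-specific large subunit protein, at 54.9 and 74.1 FPKM (1.35). *Mrps34*, a mitochondria-specific protein of the small subunit, was at 30.5 and 41.0 FPKM (1.35). An exon of *Mrpl36* overlaps one of *Ndufs6* on the other strand, and *Mrps34* overlaps *Nme3* on its own strand and *Mapk8ip3* on the other. Centring on GC content took the log2 ratios of *Mrpl52* from 0.44 to 0.25, of *Mrpl54* from 0.43 to 0.23 and of *Mrps34* from 0.43 to 0.23, and centring on length took both *Mrpl52* and *Mrpl54* to 0.27 and *Mrpl36* from 0.48 to 0.32. Reads of overlapping partners cannot be told apart where strand is not used, and whether it was is not given in the sources used here.

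Of the 8 lowest ratios, 6 belonged to the large subunit, which also holds most of the members (50, against 26 in the small subunit). *Mrpl1* (chr5:96209493-96266727), the protein of the mobile stalk that helps the spent tRNA leave, stood at 5.26 FPKM in *Dnmt1*-WT and 3.07 FPKM in *Dnmt1*-KO, a ratio of 0.584. Its log2 ratio of -0.78 became -0.62 with a pseudocount of 1 FPKM and -0.50 with centring on transcript GC content. *Mrpl15* (chr1:4773206-4785739), the counterpart of bacterial L15, stood at 17.6 and 12.2 FPKM, a ratio of 0.696. It was the sole member at 0.8 or less with 10 FPKM in both libraries. *Mrpl47*, the L29 counterpart at the tunnel exit, was at 10.5 and 7.68 FPKM (0.731), with exons that overlap *Actl6a* and *Ndufb5* on the other strand. *Mrps27*, an RNA-binding protein with pentatricopeptide repeats, was at 11.45 and 8.95 FPKM (0.782), and *Mrpl50*, found only in mitochondria, at 11.4 and 8.99 FPKM (0.791). *Mrpl42* and *Mrpl22*, a tunnel protein at 35.9 and 29.3 FPKM, lay just outside at 0.803 and 0.817. *Mrps25* was at 11.7 and 9.67 FPKM (0.824), and its long transcript overlaps *Nr2c2* on the other strand. Centring on GC content brought several of these log2 ratios nearer to 0, from -0.45 to -0.25 for *Mrpl47*, from -0.34 to -0.065 for *Mrpl50*, from -0.32 to -0.21 for *Mrpl42* and from -0.28 to -0.082 for *Mrps25*. It left 2 members (2.60%) at a ratio of 0.8 or less, beside 23.5% of all genes. Centring on length took *Mrps25* to -0.092, and *Mrpl22* and *Mrpl42* away from 0 to -0.46 and -0.48.

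**Figure D2:**
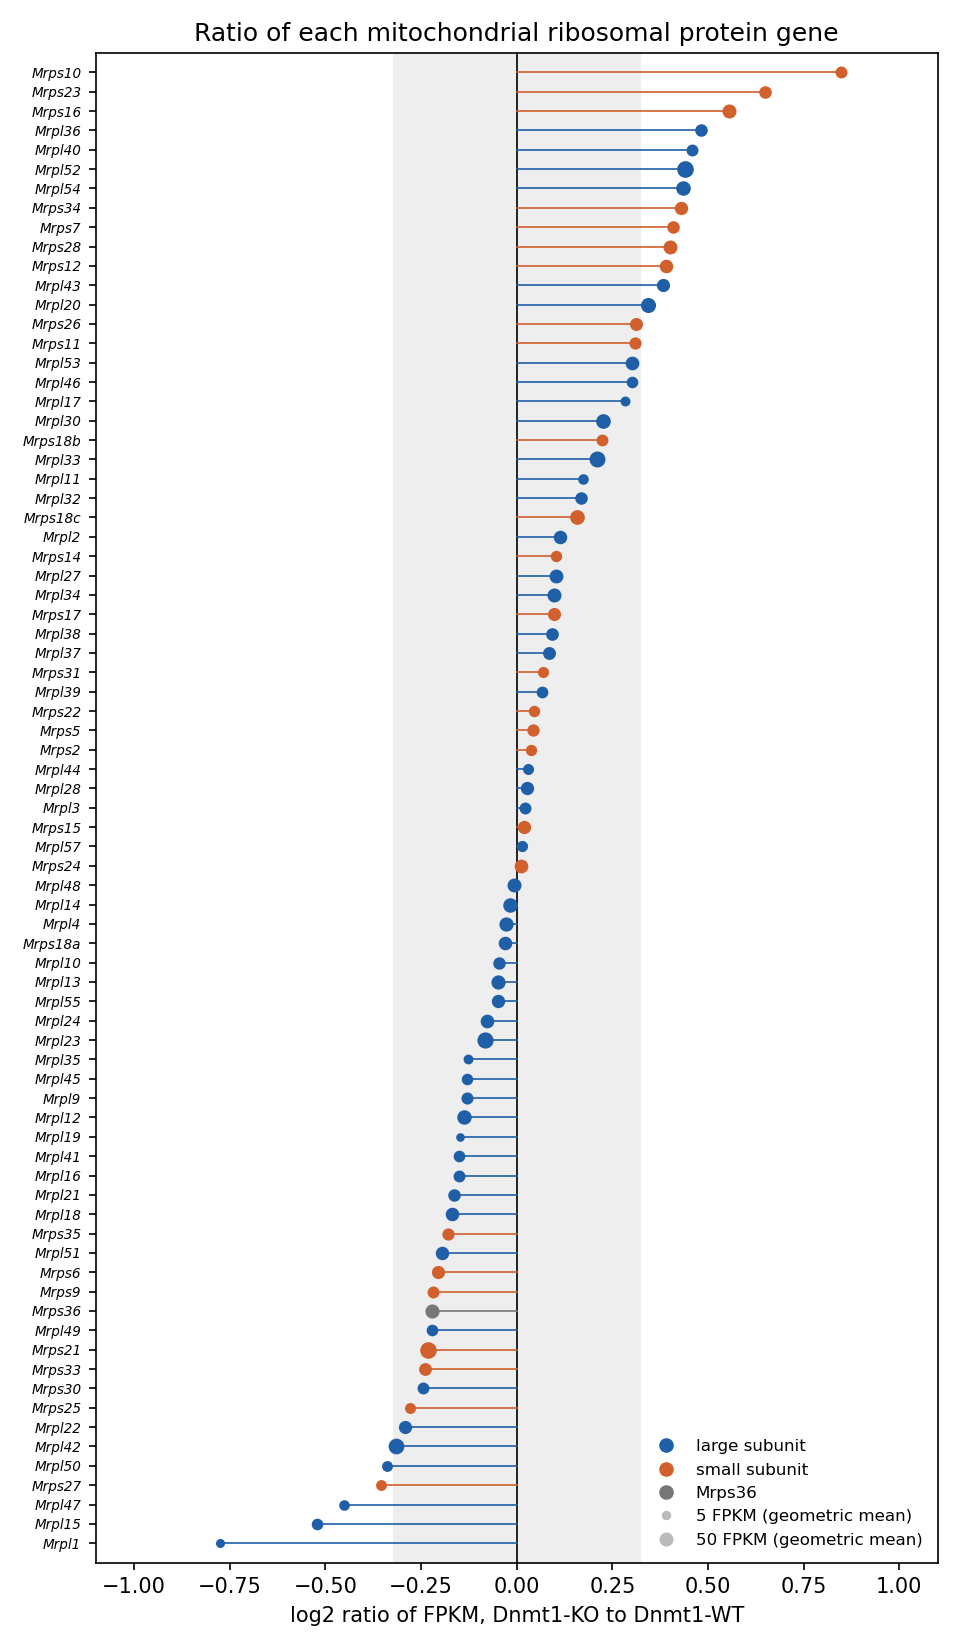
Log2 ratio of FPKM in *Dnmt1*-KO to *Dnmt1*-WT for each of the 77 members, ordered from the highest (*Mrps10*, 0.85) to the lowest (*Mrpl1*, -0.78), with large subunit proteins in blue, small subunit proteins in orange and *Mrps36* in grey. Point size follows the geometric mean FPKM, and the shaded band, which holds 59 members, runs from a ratio of 0.8 to its inverse.

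By position in the particle, 50 members belong to the large subunit and 26 to the small subunit. *Mrps18a* and *Mrps30* count with the large subunit, where structures of the particle place them in spite of their symbols. *Mrps36* counts with neither, since its product is now assigned to the 2-oxoglutarate dehydrogenase complex. It stood at 56.1 and 48.1 FPKM. In the large subunit 23 members were higher and 27 lower in *Dnmt1*-KO, with a median log2 ratio of -0.02. In the small subunit 19 were higher and 7 lower, with a median of 0.08. The small subunit held 7 of the 13 members higher by 25% or more, and 1 of the 5 at 0.8 or less. Beside 29.6% and 25.4% of all genes, these were 26.9% and 3.85% of the small subunit. Division by the FPKM sum, which shifts each gene alike and leaves the gap between the subunits as it was, gave 12 higher and 14 lower (median -0.02). Centring on transcript length gave 13 of each (0.01 beside -0.10 for the large subunit). Centring on GC content gave 17 higher and 9 lower (0.15 beside -0.04), and a minimum of 10 FPKM 19 higher and 5 lower (0.10 beside -0.01). The upper quartile gave 19 higher and 7 lower (0.15). The large subunit median was then 0.04, with 30 members higher.

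Within the small subunit, the 16 proteins with a bacterial counterpart had 13 members higher and 3 lower, with a median log2 ratio of 0.10. Among these, *Mrps12*, which lies at the decoding centre, was at 34.8 and 45.6 FPKM, and *Mrps7*, a head protein, at 20.01 and 26.5 FPKM. *Mrps28*, which takes the place of bacterial S1, was at 41.6 and 54.9 FPKM. *Mrps6* (34.3 and 29.7 FPKM), *Mrps9* (18.8 and 16.2 FPKM) and *Mrps21* were the 3 lower ones. The 10 mitochondria-specific proteins of the small subunit split into 6 higher and 4 lower. In the large subunit, proteins with a bacterial counterpart were higher in 12 and lower in 18 cases (median -0.05), and mitochondria-specific ones higher in 11 and lower in 9 (median 0.02). Over both subunits the medians were 0.02 for the 46 proteins with a bacterial counterpart and 0.04 for the 30 without.

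The large subunit carries the peptidyl transferase centre, where peptide bonds form. Its 5 proteins listed for that site and the upper tunnel (*Mrpl2*, *Mrpl3*, *Mrpl4*, *Mrpl16*, *Mrpl27*) all had ratios between 0.901 and 1.08. *Mrpl2* was at 36.6 and 39.6 FPKM, and *Mrpl3* at 17.2 and 17.5 FPKM. *Mrpl16*, which contacts the tRNA in the acceptor site, was at 17.7 and 16.0 FPKM. Of the 8 proteins around the tunnel exit, where the nascent chain leaves next to the inner membrane, 3 were higher and 5 lower, and their sum was 285.4 and 266.3 FPKM. *Mrpl45*, which attaches the ribosome to that membrane, was at 14.8 and 13.5 FPKM, and *Mrpl24* at 42.5 and 40.3 FPKM. *Mrpl39* (15.3 and 16.0 FPKM) and *Mrpl44* (11 and 11.2 FPKM) differed little.

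The stalk recruits the GTPases that drive elongation. *Mrpl12*, present there in several copies, was at 64.7 and 58.7 FPKM, *Mrpl10*, its anchor, at 22.3 and 21.6 FPKM, and *Mrpl11* at 8.32 and 9.38 FPKM. Ratios over these 3 ran from 0.908 to 1.13. Of the 5 proteins listed for the central protuberance, which faces the head of the small subunit, 3 were higher and 2 lower. *Mrpl38* was at 24.2 and 25.8 FPKM, and *Mrpl48* at 48.1 and 47.9 FPKM. In the small subunit, 5 of the 8 head proteins were higher (median log2 ratio 0.04), and 14 of the 18 proteins of the body and platform (median 0.13).

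The 3 *Mrps18* paralogues sit at different places in the particle and differed in level. *Mrps18c*, the form closest in place to bacterial S18, was the most abundant at 66.5 and 74.1 FPKM. *Mrps18a*, a large subunit protein, stood at 39.8 and 38.9 FPKM. *Mrps18b*, a second small subunit protein, stood at 15.4 and 17.99 FPKM. The order c, a, b was the same in both libraries. Ratios of 1.11, 0.979 and 1.17 were all close to 1, and the signs of *Mrps18c* under length centring and of *Mrps18a* under upper quartile scaling turned.

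Members lay on 17 chromosomes, with the most, 10, on chromosome 11. *Mrps11* (chr7:78783119-78792989, plus strand) and *Mrpl46* (chr7:78775236-78783531, minus strand) face away from each other with overlapping first exons, so that 1 locus serves both subunits. *Mrps11* was at 17.9 and 22.2 FPKM and *Mrpl46* at 13.3 and 16.3 FPKM, with ratios of 1.24 and 1.23. In all, 27 members have an exon that overlaps an exon of another gene on the other strand and 8 on the same strand. Positions are those of GENCODE release M21 on GRCm38.

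The deposited table also gives the number of transcript variants found for each gene. This number was the same in both libraries for 71 of the 77 members (92.2%) and for 73.9% of all genes above 0 FPKM in both. Among genes at 10 FPKM or more the shares were 94.1% and 79.9%. A single variant in both libraries was listed for 40 members (51.9%, against 37.2% of all genes above 0 FPKM in both). At 10 FPKM or more the shares were 54.4% and 31.4%. Among the members *Mrpl15* had the most variants, with 5 in each library. The 6 members whose number differed included the 2 with the highest ratios. *Mrps10* went from 3 variants in *Dnmt1*-WT to 2 in *Dnmt1*-KO and *Mrps23* from 3 to 4. *Mrpl40* went from 2 to 3 and *Mrps27* from 3 to 2, and *Mrpl17* and *Mrpl21* from 1 to 2. The median absolute log2 ratio was 0.41 for these 6 and 0.17 for the other 71. The part of the variant number in these ratios was not tested.

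Ribosomal proteins of the cytosol, which are made for the other translation machinery of the cell, were listed higher in *Dnmt1*-KO almost throughout. Of 78 such genes, all at 10 FPKM or more in both libraries, 75 (96.2%) were higher in *Dnmt1*-KO and 54 (69.2%) were higher by 25% or more. Of all genes at that level, 47.3% were higher and 18.4% higher by 25% or more. The median log2 ratio of the 78 genes was 0.45. Their summed FPKM was 50041 in *Dnmt1*-WT and 71516 in *Dnmt1*-KO, a ratio of 1.43. The median stayed between 0.31 and 0.51 under every scaling and filter tried, while that of the mitochondrial set stayed between -0.08 and 0.09. The nuclear subunits of the respiratory chain and ATP synthase, which join the proteins made by the mitochondrial ribosome, had 39 genes higher and 43 lower, and a median of -0.01 (-0.17 with centring on length). Their summed FPKM was 27682 and 29078.

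Transcript length ran with the ratio over all genes. The median log2 ratio was 0.17 in the shortest of 10 equal bins of length (767 bases or less) and -0.19 in the longest. Mitochondrial ribosomal protein transcripts are short, with a median of 1047 bases, and those of cytosolic ribosomal proteins shorter still at 689 bases. The 24 members in the shortest bin had a median of 0.13 beside 0.17 for all genes there. The 16 in the next bin had 0.06 beside 0.11, and the 13 in the bin after it had -0.08 beside 0.11. The longer bins held 1 to 5 members each and went both ways. Counted from the shortest, members were above all genes in bins 6 (0.04 beside -0.01), 7 (0.09 beside -0.01) and 9 (0.31 beside -0.09). They were below in bins 4, 5, 8 and 10. Across the members, Spearman's rho of the log2 ratio was -0.27 with transcript length, 0.41 with transcript GC content and 0.23 with level. After centring on length the medians were -0.07 for the mitochondrial and 0.31 for the cytosolic set. The part of transcript length in the ratios was not tested further.

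**Figure D3:**
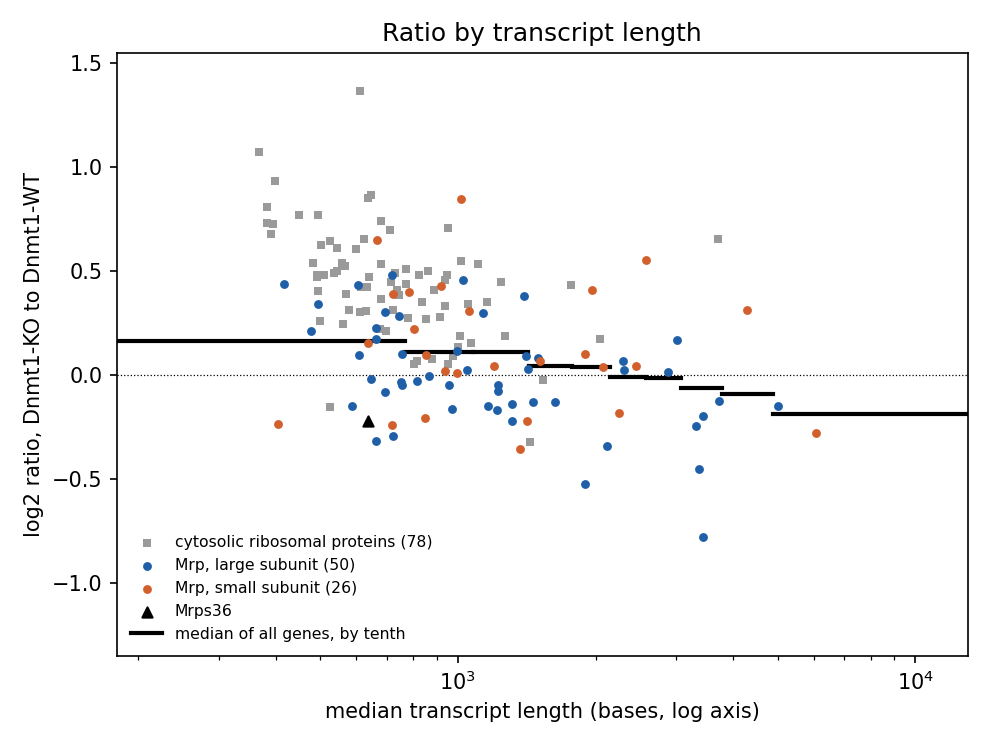
Log2 ratio of FPKM in *Dnmt1*-KO to *Dnmt1*-WT (vertical) against median transcript length in bases (horizontal, log axis) for members of the large subunit (blue), the small subunit (orange), *Mrps36* (black triangle) and cytosolic ribosomal proteins (grey squares). Black bars give the median of all genes in each of 10 bins of length, from 0.17 to -0.19, and most grey squares lie above them.

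The remaining genes of mitochondrial translation spread in both directions. A further 6 mitochondrial ribosomal proteins have other symbols, and 5 of them were higher in *Dnmt1*-KO (median log2 ratio 0.30, and 0.11 with GC centring). *Chchd1* and *Aurkaip1*, both of the small subunit, were at 46.8 and 75.2 FPKM and at 35.9 and 47.5 FPKM. *Ict1*, a large subunit protein that can free stalled peptides, was at 33.0 and 41.6 FPKM, and *Gadd45gip1* at 16.5 and 19.9 FPKM. *Dap3*, the GTP-binding protein of the head, was at 8.3 and 9.24 FPKM. *Ptcd3*, at the entrance of the mRNA channel, was at 12.3 and 7.72 FPKM, the 1 lower gene of this list.

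Genes of assembly and rRNA modification were higher in 12 and lower in 14 of 26 cases (median -0.07, and -0.18 with GC centring). *Malsu1*, which keeps the subunits from joining too early, was at 16.8 and 29.0 FPKM, while the GTPase *Gtpbp10* was at 4.59 and 2.22 FPKM and the RNA-binding *Fastkd2* at 6.16 and 3.42 FPKM. Translation factors were higher in 4 and lower in 8 of 12 cases (median -0.23). *Tufm*, which delivers aminoacyl-tRNA, was at 40.9 and 33.1 FPKM, and its exchange factor *Tsfm* at 8.1 and 9.1 FPKM. The translocation factor *Gfm1* was at 15.9 and 16.3 FPKM, the recycling factor *Mrrf* at 15.5 and 10.7 FPKM and *Guf1* at 7.73 and 4.2 FPKM. Aminoacyl-tRNA synthetases and the related amidotransferase subunits, which load the tRNAs, were lower in 17 of 20 cases (median -0.21). *Lars2*, for leucine, was at 221 and 93.3 FPKM, in a list that summed to 348 and 208 FPKM. The ratio of the sums was 0.596 with it and 0.894 without it.

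Genes that replicate or transcribe mitochondrial DNA or keep its mRNAs, here 1 list, were lower in 9 of 11 cases (median -0.30, and -0.11 with GC centring). The polymerase *Polrmt* was at 7.45 and 6.34 FPKM and the packaging factor *Tfam* at 5.75 and 4.68 FPKM, while *Slirp*, an mRNA-binding protein, was at 129 and 192 FPKM. Most genes of these lists stood below 10 FPKM. Over the genes at 10 FPKM or more the median was 0.08 for 5 assembly genes, -0.31 for 3 translation factors, -0.21 for 4 aminoacyl-tRNA synthetases and -0.06 for 4 genes of the mitochondrial DNA list. Transcripts of mitochondrial DNA itself were not analysed here.

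**Figure D4:**
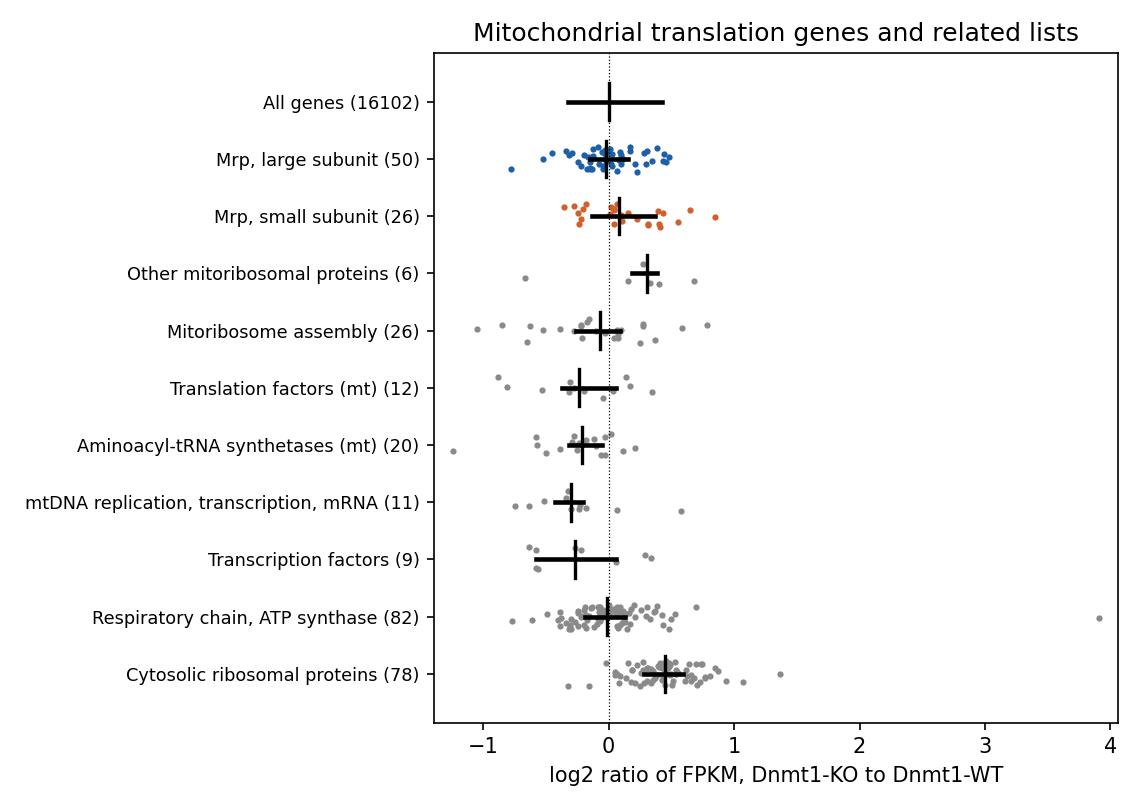
Log2 ratio of FPKM in *Dnmt1*-KO to *Dnmt1*-WT for each gene of the lists, 1 point per gene with vertical scatter for legibility, vertical bars at the median and horizontal bars over the interquartile range, and numbers of genes in brackets. Medians run from -0.30 (mitochondrial DNA replication, transcription and mRNA stability) to 0.45 (cytosolic ribosomal proteins), with both subunits of the mitochondrial ribosome near 0 and *Cox6a2* (0.35 and 5.25 FPKM) far to the right among the respiratory chain genes.

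Nuclear genes for mitochondrial proteins are known for promoters without a TATA box that hold sites of the ETS family factor GABPA, of NRF1 and of YY1. Of 9 such regulators and co-regulators, 3 were higher and 6 lower (median log2 ratio -0.27). *Gabpa* was at 14.4 and 9.75 FPKM, *Nrf1* at 8.36 and 7.16 FPKM, *Yy1* at 31.6 and 21.1 FPKM and the coactivator *Ppargc1a* at 7.44 and 4.78 FPKM. *Myc* was at 7.67 and 9.4 FPKM and *Pprc1* at 7.22 and 9.1 FPKM.

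Promoter sequences (RefSeq, GRCm38.p6, from 250 bases before to 50 after the start) were matched by symbol for 68 of the 77 members, with 74 promoters in all. *Mrpl13*, *Mrpl15*, *Mrpl19*, *Mrpl38*, *Mrpl4*, *Mrpl54*, *Mrps28*, *Mrps34* and *Mrps35* had none. Each motif was searched on both strands. The GABPA motif CCGGAAG was in 25 member promoters (33.8%). It was in 13.7% of the 16659 promoters of genes in the deposited table, from which the members come, and in 8.86% of all 32851 promoters of the same length. The YY1 motif AAGATGGC was in 12 (16.2%, against 3.48% of the table's promoters and 2.75% of all), and the NRF1 motif, GCGCA and GCGC with 1 base of any kind between them, in 13 (17.6%, against 7.73% and 4.60%). At least 1 of the 3 was in 42 (56.8%, against 22.3% and 14.7%), and no GABPA match overlapped a YY1 match. The letters TATAAA were in 5 (6.76%, against 8.78% and 13.6%) and CACGTG, the E-box of Myc and other factors, in 7 (9.46%, against 8.94% and 7.15%). A match is a description of letters and not a binding site.

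Cytosolic ribosomal protein promoters held the 3 motifs about as often (53.7% with at least 1, among 67 promoters), with fewer NRF1 matches (7.46%). Promoters of the respiratory chain and ATP synthase held them in 51.4% of 72 cases, with NRF1 in 18 of them. Members with and without a match overlapped in their ratios. The median log2 ratio was 0.04 for the 42 members with at least 1 match and -0.01 for the 26 without. It was 0.10 for the 25 with a GABPA match and 0.01 for the 43 without it, with single members from -0.36 to 0.65 and from -0.78 to 0.85. For YY1 it was 0.05 for the 12 with a match and 0.02 for the 56 without. NRF1 went the other way, with 0.01 for the 13 with a match and 0.03 for the 55 without. These differences were not tested.

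The 250 bases before the start are shown for the 2 most abundant members, for *Mrpl36* as the one with a high ratio and a YY1 match there, and for the members with the highest and the lowest ratio, which have no match of the 3 motifs. Capitals mark a match on either strand, to the GABPA motif in *Mrpl52*, the NRF1 motif in *Mrps21* and the YY1 motif in *Mrpl36*. A further GABPA match of *Mrpl52* and a GABPA match of *Mrps21* lie after the start, outside these 250 bases. Sequences run 5′ to 3′ on the strand of the gene.
Mrpl52 (chr14:54426659-54426908, plus strand): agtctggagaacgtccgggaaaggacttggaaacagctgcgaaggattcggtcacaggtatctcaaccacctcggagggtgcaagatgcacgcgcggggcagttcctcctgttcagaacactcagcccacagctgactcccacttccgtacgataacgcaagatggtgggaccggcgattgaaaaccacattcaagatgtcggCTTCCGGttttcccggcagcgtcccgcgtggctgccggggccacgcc
Mrps21 (chr3:95871515-95871764, minus strand): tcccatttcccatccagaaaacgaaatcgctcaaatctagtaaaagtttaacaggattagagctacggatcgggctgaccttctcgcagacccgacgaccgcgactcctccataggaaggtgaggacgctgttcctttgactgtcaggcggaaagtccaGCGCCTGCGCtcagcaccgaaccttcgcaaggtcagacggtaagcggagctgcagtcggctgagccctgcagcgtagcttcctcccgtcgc
Mrpl36 (chr13:73330759-73331008, plus strand): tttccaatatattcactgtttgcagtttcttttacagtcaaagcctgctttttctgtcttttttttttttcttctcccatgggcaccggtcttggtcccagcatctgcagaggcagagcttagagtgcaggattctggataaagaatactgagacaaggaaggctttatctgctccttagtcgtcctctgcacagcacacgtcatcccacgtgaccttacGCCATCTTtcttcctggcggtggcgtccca
Mrps10 (chr17:47368947-47369196, plus strand): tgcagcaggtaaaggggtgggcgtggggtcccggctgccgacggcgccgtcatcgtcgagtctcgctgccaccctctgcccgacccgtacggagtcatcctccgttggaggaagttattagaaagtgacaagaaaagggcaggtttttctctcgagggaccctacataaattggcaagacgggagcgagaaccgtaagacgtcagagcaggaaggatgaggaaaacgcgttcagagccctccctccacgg
Mrpl1 (chr5:96209865-96210114, plus strand): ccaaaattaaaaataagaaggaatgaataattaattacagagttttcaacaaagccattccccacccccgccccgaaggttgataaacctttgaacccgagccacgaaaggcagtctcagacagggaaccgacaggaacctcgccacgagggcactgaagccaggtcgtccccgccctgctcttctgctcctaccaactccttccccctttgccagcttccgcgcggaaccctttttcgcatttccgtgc

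Cytosolic ribosomal protein mRNAs are known to begin with a run of pyrimidines, through which their translation is controlled together. A run was searched as a C followed by at least 5 bases that are C or T, beginning between 5 bases before and 10 after the start. It was found in 30 of 67 cytosolic ribosomal protein promoters (44.8%), in 6 of the 74 member promoters (8.11%), in 18.1% of those of the respiratory chain and ATP synthase, in 14.2% of those of the table and in 13.9% of all promoters. With the run required to begin exactly at the start the shares were 17.9% for the cytosolic set, 4.17% for the respiratory chain and ATP synthase, 0 of 74 promoters for the mitochondrial set, 1.76% for the table and 1.70% for all promoters. The stretch from 10 bases before to 20 after the start is shown for the 2 most abundant members and for 2 cytosolic ribosomal protein genes that have the run, which is in capitals. Matches to the GABPA motif are not marked there.
Mrpl52 (chr14:54426899-54426928, plus strand): gggccacgcccacttccggttcccttgctc
Mrps21 (chr3:95871495-95871524, minus strand): ctcccgtcgcgggactccgtagcttccgct
Rps6 (chr4:86857348-86857377, minus strand): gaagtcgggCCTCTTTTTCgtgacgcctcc
Rps12 (chr10:23787190-23787219, minus strand): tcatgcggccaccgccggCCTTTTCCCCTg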

How the data were processed

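mRNA-seq values of 2 libraries of jejunal tunica muscularis were used, 1 *Dnmt1*-WT and 1 *Dnmt1*-KO. Per the labels, RNA was isolated with a mirVana kit and libraries were made with TruSeq RNA Sample Preparation. The submitters' processing notes name TopHat 1.4.1, Cufflinks 2.0.2 and mm10. The authors deposited FPKM per gene symbol, the number of transcript variants per library and their own ratio, which was not used. No column of values lacked a sample.

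Plain ratios of the deposited FPKM were computed in Python 3.11.15 (pandas 2.3.3, numpy 2.4.6) over genes above 0 FPKM in both libraries. Counts used ratios of 2, 0.8 and 0.5 and values higher by 25% or more. With 1 library per genotype no test was made, and the procedure was checked on simulated data. Transcript length and GC content are medians over the protein-coding transcripts of each gene in GENCODE M21, or over all its transcripts where it has none. Alternatives were median centring, trimmed mean (30% of ratios and 5% of levels), upper quartile, FPKM sum, pseudocounts of 1 and 0.1, and minimums of 1 and 10 FPKM. Centring in 10 bins of transcript length or GC content was also used. For the share of the members, the FPKM sum was also taken without symbols that begin with Mir, Snor, Scarna or Rn. These beginnings were meant for small RNA genes but are not limited to them.

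The members, lists and alternatives were chosen with earlier results of these data known. Members named were those with the 8 highest and 8 lowest ratios, the 5 highest and 5 lowest levels (geometric mean of the 2 libraries) and the *Mrps18* paralogues. Genes of a described list were named as well. The structural groups, and the other members named in them, in the *Mrps11* locus or for their variant numbers, were chosen after the values were seen. Universal names of the proteins set their subunit and origin.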

Additional observations from a re-analysis of the deposited data

How the results depend on the processing

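No paired analysis was possible because each genotype has 1 library. Ratios of 2 or more and of 0.5 or less were absent among the members under all 10 alternatives. Median centring, the trimmed mean, both pseudocounts and the minimum of 1 FPKM moved none of the 21 counts and medians beyond 1.5 times or 0.1 on the log2 scale. Under division by the FPKM sum, 43.0% of all genes were higher in *Dnmt1*-KO, 25.2% by 25% or more, and 32.3% were at 0.8 or less. That setting gave 27 members higher, 8 higher by 25% or more and 12 at a ratio of 0.8 or less. Its medians were -0.0785 for all members, -0.11 for *Mrpl*, -0.056 for *Mrps*, -0.0798 for members with a bacterial counterpart, -0.0642 for mitochondria-specific ones, -0.12 for the large and -0.0174 for the small subunit. They were 0.35 for cytosolic ribosomal proteins, -0.11 for the respiratory chain, 0.20 for the other mitoribosomal proteins, -0.34 for translation factors, -0.17 for assembly, -0.31 for aminoacyl-tRNA synthetases, -0.40 for the mitochondrial DNA list and -0.37 for the regulators. By construction this setting shifts each gene by the same amount. Length centring gave 6 members higher by 25% or more and 12 at 0.8 or less, beside 28.8% and 24.998% of all genes. The medians under length centring were 0.31 for cytosolic ribosomal proteins, -0.17 for the respiratory chain and -0.39 for the regulators. GC centring gave 2 members at 0.8 or less, beside 23.5% of all genes. Its medians were 0.11 for the other mitoribosomal proteins, -0.18 for assembly and -0.11 for the mitochondrial DNA list. The upper quartile gave 3 members at 0.8 or less, beside 21.5% of all genes. A minimum of 10 FPKM gave 1 such member, beside 20.4% of the genes at that level. Medians there, over fewer genes, were 0.0757 for assembly and -0.0582 for the mitochondrial DNA list, and -0.42 over the 2 regulators left. The cause of the shifts under length and GC centring was not tested. Among the members named by ratio, by level or as *Mrps18* paralogues, the sign turned for *Mrpl19* and *Mrps18c* under length centring, *Mrpl35* under GC centring and *Mrps18a* under the upper quartile. Other members close to a ratio of 1 turned too, since the uniform shifts took the number higher from 42 to 27 (FPKM sum) and to 49 (upper quartile). The start position of the pyrimidine run and the list without *Lars2* were chosen after seeing the data. Without counts, the precision of single values is unknown.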
